A study of Mus musculus with 6 samples.

Results

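The 100 kb windows of the mouse autosomes with the most H3K9me2 were described across the 6 ChIP-seq libraries of the series. The genome was divided from position 1 of each autosome, and a window was scored by its mean H3K9me2 level over the 2 kb tiles kept in it, averaged over the libraries of both genotypes. A level is the antilog of the deposited log2 ratio of observed to expected reads. Tiles without a read in both H3K9me2 libraries and tiles with a log2 value above 4 in either were left out, and at least 40 tiles had to remain. Of 24731 autosomal windows with tiles, 23602 were scored, and the 2360 with the highest scores, or 10% of those scored, are called members here. Because the H3K9me2 levels chose them, these levels and the comparison of the H3K9me2 libraries inside members are given as a description.

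Both genotypes were mouse embryonic stem cells (ESCs) that carried a constitutive deletion of Dicer, made by CRISPR/Cas9 in Dnmt1 loxP/loxP cells and taken from colonies of single cells. In the Dicer KO the conditional Dnmt1 alleles were intact, and in the Dicer KO/Dnmt1 cKO they had been removed by a Cre that responds to 4OHT. Both lacked Dicer, so no library of cells with Dicer enters any value given here. The cells were grown in serum with LIF, the labels give the strain as E14 whereas the methods describe a C57BL/6 line, and the labels give no day after the deletion of Dnmt1. H3K9me2, H3K27me3 and H3K9me3 were each measured in 1 library per genotype. Where a pair of values is given for a mark, the first is from the Dicer KO and the other from the Dicer KO/Dnmt1 cKO. The genotypes were thus compared without replicates, and p-values were not computed. Each interval is a 95% interval for counting error only. It takes reads as independent, which PCR copies of a molecule are not, so it may be too narrow.

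H3K9me2 is a repressive histone mark placed mainly by the G9a/GLP enzymes. It covers long stretches of the genome rather than narrow peaks, and in many cell types it is found over gene-poor chromatin at the nuclear lamina. H3K27me3 is the mark of Polycomb repressive complex 2 and in ESCs peaks at the CpG-rich promoters of silent developmental genes, while H3K9me3 marks constitutive heterochromatin and transposable elements. DNMT1 copies DNA methylation after replication, and DICER processes double-stranded RNA into small RNAs.

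The sequences at both ends of the H3K9me2 scale are printed here, because they show what kind of sequence the extreme windows held. They are the middle 200 bases of the kept tile with the most H3K9me2 reads, in the 3 highest members and in the 3 lowest windows on different chromosomes. All are given on the plus strand of NCBIM37, with each CpG in capitals.
chr1:90116901-90117100, highest: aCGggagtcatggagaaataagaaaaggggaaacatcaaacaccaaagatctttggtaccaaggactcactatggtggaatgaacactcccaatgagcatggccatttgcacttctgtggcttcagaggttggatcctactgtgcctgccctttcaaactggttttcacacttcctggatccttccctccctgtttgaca
chr8:19940901-19941100, highest, in Gm15319: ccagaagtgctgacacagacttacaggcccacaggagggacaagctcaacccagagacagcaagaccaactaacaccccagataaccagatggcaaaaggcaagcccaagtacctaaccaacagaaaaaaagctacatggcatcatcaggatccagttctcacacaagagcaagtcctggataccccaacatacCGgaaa
chr3:25430901-25431100, highest, in Nlgn1: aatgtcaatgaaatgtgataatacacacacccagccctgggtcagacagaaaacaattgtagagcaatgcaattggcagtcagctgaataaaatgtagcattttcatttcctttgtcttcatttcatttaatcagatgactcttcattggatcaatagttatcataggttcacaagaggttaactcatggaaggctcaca
chr14:42868901-42869100, lowest, in Gm7995: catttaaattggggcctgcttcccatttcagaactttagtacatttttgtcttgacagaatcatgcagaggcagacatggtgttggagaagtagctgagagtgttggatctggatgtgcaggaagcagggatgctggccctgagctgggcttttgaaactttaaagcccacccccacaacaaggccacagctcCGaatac
chr7:10028901-10029100, lowest: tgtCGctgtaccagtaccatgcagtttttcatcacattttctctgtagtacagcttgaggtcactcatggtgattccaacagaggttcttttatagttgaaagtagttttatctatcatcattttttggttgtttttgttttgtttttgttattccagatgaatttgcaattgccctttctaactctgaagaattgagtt
chr12:20036901-20037100, lowest: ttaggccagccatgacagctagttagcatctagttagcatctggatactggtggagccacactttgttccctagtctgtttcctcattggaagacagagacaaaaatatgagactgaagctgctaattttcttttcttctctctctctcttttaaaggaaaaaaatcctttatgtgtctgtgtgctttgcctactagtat
The stretches from the highest windows held 1, 1 and 0 CpGs and had a GC content of 47%, 49.5% and 37%. Those from the lowest windows held 1, 1 and 0 CpGs, at 48.5%, 34.5% and 40% GC. Neither measure separated the ends of the scale in these 6 stretches. For H3K9me2, the tile on chromosome 1 had 141 and 162 reads, and the tile on chromosome 14 held 4 and 3. The same tile on chromosome 1 held 203 and 158 H3K27me3 reads and 205 and 171 H3K9me3 reads, so it was high with all 3 antibodies. The tile on chromosome 14 held 2 and 2 H3K27me3 reads and 0 and 3 H3K9me3 reads, so it was low with all 3. Its window kept 41 tiles, near the limit of 40, and stood at 0.104 in H3K27me3 and 0.151 in H3K9me3. Low values there were thus not particular to H3K9me2.

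In the Dicer KO the H3K9me2, H3K27me3 and H3K9me3 libraries held 16834940, 27162045 and 18155478 reads, and with Dnmt1 deleted as well they held 20503709, 21280804 and 18931477. As a check of the labelled cell type, the 18 autosomal pluripotency genes had a median H3K27me3 level of 0.323 and the 40 Hox genes one of 3.63. The 6 markers of fibroblast feeders lay between 0.539 and 3.11 in H3K27me3, and histone marks do not measure whether a gene is expressed. Over the body of Dnmt1, which lay outside the members, the H3K9me2 level was 0.276 and 0.414. Reads of a repressive mark over a gene do not check its deletion.

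Members carried between 11.5% and 14.5% of the reads of each library. Their median H3K9me2 level was 1.15 in the Dicer KO and 1.11 with Dnmt1 deleted too, against 0.870 and 0.865 over all scored windows. Single members ranged from 1.01 to 4.88 and from 0.971 to 4.59. A median member held 942.5 and 1101 H3K9me2 reads in these libraries. The 3 members just above the threshold and the 3 windows just below it all had a score of 1.07, so membership there was decided by far less than the counting error of a window. Ranking on the Dicer KO library alone shared 2053 windows with the members (87.0%), ranking on the Dicer KO/Dnmt1 cKO library alone shared 1981 (83.9%), and both of these rankings shared 1678.

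The other repressive marks were also higher in members. The median H3K27me3 level was 1.22 and 1.21, against 0.793 and 0.790 over all windows. For H3K9me3 it was 0.977 and 0.995, against 0.808 and 0.802. In the mean of both genotypes the median member therefore stood at 1.53 times the median window in H3K27me3 and at 1.22 times in H3K9me3, compared with 1.3 times in H3K9me2, the mark that chose it. The distance between the quartiles of all windows was 0.449 and 0.420 in H3K27me3, 0.226 and 0.226 in H3K9me3 and 0.289 and 0.237 in H3K9me2. The spread thus differed, and these folds do not rank the marks. In H3K27me3, 2254 members (95.5%) lay above the median window, and in H3K9me3 2319 did (98.3%). All 3 marks are shares of reads without a correction for input, which was not used here. In these libraries a part of the level that does not depend on the antibody thus cannot be told apart from the mark.

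**Figure D1:**
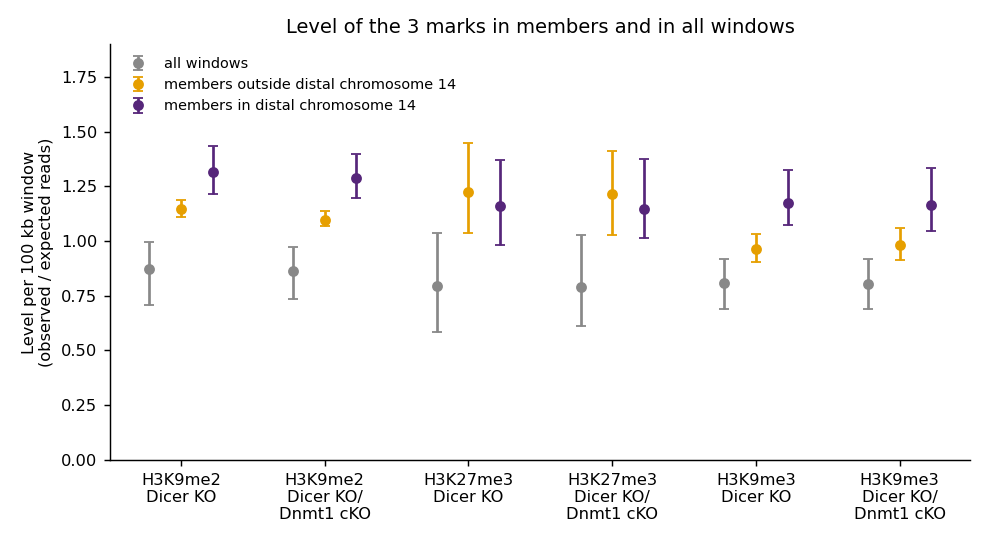
Levels per 100 kb window (observed over expected reads) in each of the 6 libraries, with points for medians and bars for quartiles of all windows (grey), of members outside distal chromosome 14 (orange) and of members inside it (purple). Both sets of members have medians above that of all windows in every library, and those in distal chromosome 14 are the higher in H3K9me2 (1.32 against 1.15 in the Dicer KO) and in H3K9me3 but not in H3K27me3.

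The H3K9me2 level of a window went along with both other marks over the whole range. Over the 23602 windows, Spearman's rho of H3K9me2 was 0.649 with H3K27me3 and 0.700 with H3K9me3. These points share libraries, mappability and base composition, and the values are descriptions. Across the 10 equal steps of H3K9me2, the median H3K27me3 level went from 0.389 in the lowest to 1.21 in the members, and H3K9me3 from 0.517 to 0.984. Within the members the relation was looser, at 0.266 with H3K27me3 and 0.423 with H3K9me3. The order of members among themselves was also less alike between genotypes than that of all windows. Spearman's rho between the H3K9me2 libraries of both genotypes was 0.946 over all windows and 0.432 over members, where the range had been cut by the rule, while H3K27me3 kept 0.965 and H3K9me3 0.818 within members.

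**Figure D2:**
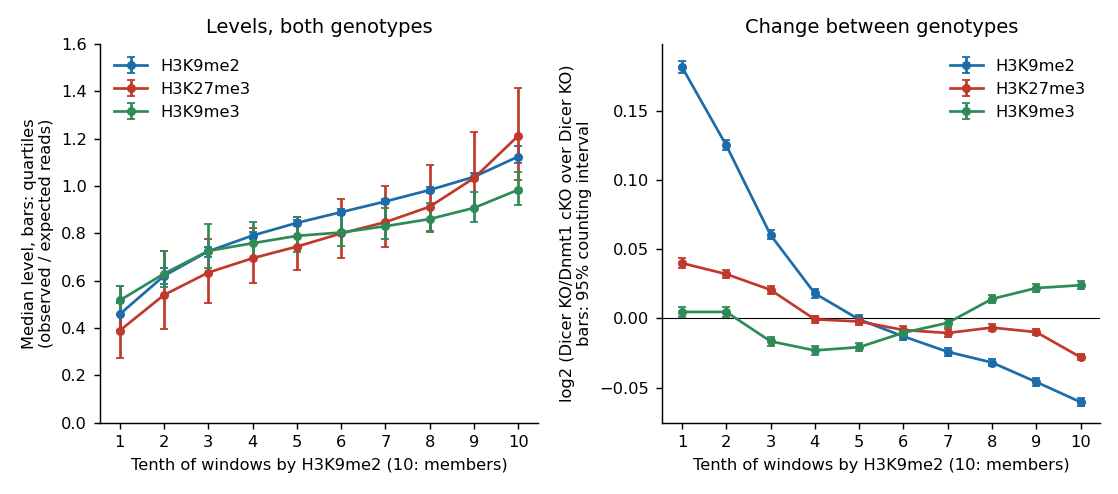
Median level of each mark in the mean of both genotypes (left, bars for quartiles over windows) and log2 change between genotypes (right, bars for 95% counting intervals) over 10 equal steps of windows ranked by H3K9me2, with the members as the last. From the first to the last step the median H3K27me3 level goes from 0.389 to 1.21 and the H3K9me2 change from 0.18 to −0.060.

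The members were not a set apart from the other marks. Among them, 804 (34.1%) were also in the highest 10% of windows in H3K27me3, 922 (39.1%) were in the highest 10% in H3K9me3, and 484 (20.5%) were in both. The remaining 1118 members (47.4%) were in neither. Only 4 members were in the lowest 10% in H3K27me3, and 0 were in the lowest 10% in H3K9me3. The ratio of H3K9me2 to the mean of the other marks had a median of 1.04 in members, below the 1.06 of all windows. It reached 1.5 in 26 members (1.1%), whereas 2.23% of all windows reached it. The windows with the most H3K9me2 were thus mostly not those where it stood out from the other marks.

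These classes differed in sequence. The 320 members in the highest 10% for H3K27me3 but not for H3K9me3 had a median GC content of 45.1% and held 1.13 protein-coding genes each. The 484 members high in both had 45.1% GC and 0.705 genes. The 438 high in H3K9me3 but not in H3K27me3 had 42.1% GC, and 50.7% of them held no protein-coding gene. Of these 438, 148 (33.8%) lay in the distal part of chromosome 14 described further on, against 2 of the 320 (0.625%), and the other 290 had 43.0% GC and 46.6% without a gene. The 1118 high in neither had 41.6% GC and a median ratio of H3K9me2 to the other marks of 1.13. GC content and H3K27me3 thus went together inside the members. When members were divided by GC content into 4 equal parts of 590, the median H3K27me3 level was 1.02, 1.12, 1.28 and 1.56 from low to high GC, and H3K9me3 went from 0.936 to 1.03.

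The members with the most H3K9me2 were windows high in every library. The first, chr1:90100001-90200000, overlapped Heatr7b1, Hjurp, which loads the centromeric histone CENP-A, and Trpm8, a cold-sensing ion channel. Its H3K9me2 level was 4.88 and 4.59. Its H3K27me3 levels were 5.94 and 5.92, and its H3K9me3 levels 5.22 and 5.48. All 6 libraries were above 4.5 there, with the other marks above H3K9me2. The next window, chr8:19900001-20000000 with the predicted gene Gm15319, had H3K9me2 levels of 4.71 and 4.34, H3K27me3 levels of 4.66 and 4.44 and H3K9me3 levels of 4.25 and 4.2. The third, chr3:25400001-25500000 in the synaptic adhesion gene Nlgn1, had H3K9me2 levels of 2.36 and 2.22, and its other marks lay between 1.92 and 2.08. Here the level came from part of the window, since the median tile stood at 1.21 and 13.3% of the H3K9me2 reads lay in 3 tiles. Whether the high levels came from sequence present in more copies in these cells than in the reference was not tested.

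The ratio of H3K9me2 to the other marks was highest in windows with little H3K27me3. At chr15:62000001-62100000, which overlapped no protein-coding gene, the H3K9me2 level was 1.08 and 1.14, the H3K27me3 level 0.308 and 0.358 and the H3K9me3 level 0.706 and 0.762. With a ratio of 2.08 it had the highest of all windows. Among members, a pair of windows in Lpp, a protein of cell adhesion sites, followed. At chr16:24600001-24700000 the H3K9me2 level was 1.04 and 1.11 and the H3K27me3 level 0.376 and 0.413. At chr16:24900001-25000000 these were 1.07 and 1.09, and 0.346 and 0.391. H3K9me2 stood above both other marks in both genotypes at all 3 windows. The window chr7:91100001-91200000 in 9930013L23Rik had a ratio of 1.94. At chr18:20600001-20700000, with the desmosomal cadherins Dsg3 and Dsg4, the ratio was 1.67.

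The opposite combination was found at chr17:39900001-40000000, a member with H3K27me3 levels of 8.55 and 5.52 and H3K9me3 levels of 3.72 and 2.93. Its H3K9me2 levels were 1.41 and 1.5, and 42.7% of its H3K9me2 reads lay in 3 tiles. Its median tile stood at 0.920 in H3K9me2, below the threshold of 1.07, so here too the level came from part of the window.

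Members held fewer genes than other windows. They overlapped 0.731 protein-coding genes each, against 1.29 over all windows and 3.19 in the lowest 10% by H3K9me2. Steps 7, 8 and 9 of the 10 by H3K9me2 held 0.828, 0.789 and 0.768. A low number of genes was thus not particular to members. No gene was overlapped by 1043 members (44.2%), against 35.2% of all windows, and 26 members (1.1%) overlapped 4 or more, against 8.28%. The share of tiles within a gene body was nearly the same, at 40.1% in members and 41.1% over all windows. Members therefore had fewer but longer genes. The 792 protein-coding genes with at least 50% of their body inside members, 3.70% of the 21418 on autosomes, had a median length of 28.7 kb, against 15.5 kb for all. Gene starts were scarcer still, with 726 of the 21418 starts (3.39%) in members, and 523 members (22.2%) held a start, against 43.3% of all windows. The median GC content of members was 42.7%, against 41.4% over all windows and 45.4% in the lowest 10%, and CpGs numbered 7.78 per kb against 7.80 over all windows. Across the 10 steps by H3K9me2 the median GC content was lowest in the middle, at 39.3% in step 5. In step 9 it was 41.7%.

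Inside members, gene starts stood out in both directions. At the 726 starts, the H3K9me2 level was 0.975 and 0.952, against 1.18 and 1.14 at 10 kb downstream. The H3K27me3 level was 2.18 and 1.87 at the start and 1.38 and 1.35 at 30 kb downstream. H3K9me2 thus dipped where H3K27me3 peaked. The same shape was found at starts elsewhere, at lower levels, with H3K9me2 at 0.463 and 0.499 and H3K27me3 at 0.965 and 0.831 at the start. H3K9me3 dipped at starts as well, to 0.885 and 0.942 in members. The log2 change of H3K27me3 between genotypes at the start was −0.22 in members and −0.21 elsewhere. Gene bodies and intergenic tiles of members differed little, with mean H3K9me2 levels of 1.16 and 1.15.

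**Figure D3:**
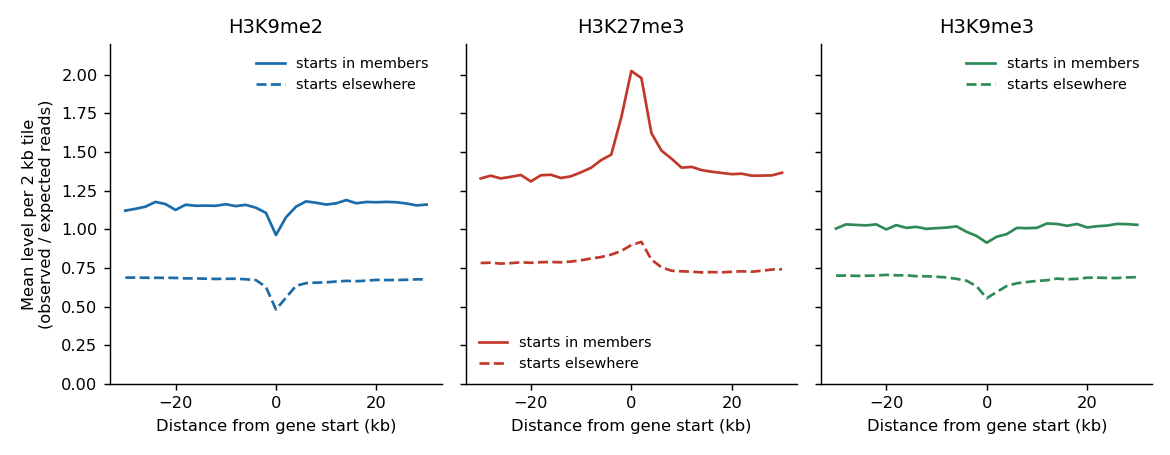
Mean level per 2 kb tile of each mark, averaged over both genotypes, from 30 kb upstream to 30 kb downstream of gene starts in members (solid, 726 starts) and elsewhere (dashed). In members H3K9me2 dips to 0.963 at the start while H3K27me3 reaches 2.03.

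Gene families were unevenly placed relative to the members. Against 3.70% of all protein-coding genes, 29 of 97 keratins and keratin-associated proteins (29.9%), 20 of 94 potassium channel genes (21.3%) and 7 of 42 collagens (16.7%) lay inside. These lists were chosen with results of these data known, and neighbouring genes share windows, so the counts are descriptions. The 29 keratins started in 8 windows, the 20 potassium channels in 18. Genes of at least 500 kb lay inside in 31 of 188 cases (16.5%) and genes under 10 kb in 267 of 8453 (3.16%). Solute carriers had 19 of 343 inside (5.54%), serpins 4 of 59 (6.78%) and UDP-glucuronosyltransferases 2 of 21 (9.52%). The 4 serpins started in 1 window, and nothing is read from the counts of these last families, which are small. Of 138 genes named as ribosomal proteins 7 lay inside (5.07%), of which the 4 highest in H3K9me2 had names of pseudogenes, such as Rpl27a-ps2.

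Other families had a smaller share inside than all genes. Of 1106 olfactory receptors 24 (2.17%), starting in 8 windows, lay inside, as did 2 of 98 cytochrome P450 genes (2.04%) and 2 of 387 zinc finger genes (0.517%). None of 330 vomeronasal receptors, 35 taste receptors, 41 beta-defensins or 34 protocadherins did. At the 3.70% of all genes the P450 genes, taste receptors, beta-defensins and protocadherins would also hold few, so nothing is read from their counts. Olfactory receptors had a median H3K9me2 level of 0.979 and taste receptors one of 0.981, against 0.620 for all genes, so many stood above the median gene but under the threshold of 1.07. The shorter lists had no gene inside, but at the 3.70% of all genes most of them would hold few. None of 18 pluripotency genes, 51 proteasome subunits, 66 histone genes or 25 genes of H3K9, H3K27 and DNA methylation lay inside, with medians of 0.323, 0.375, 0.247 and 0.453. The last of these lists also includes Dicer1. The count was also 0 of 40 Hox genes and 0 of 11 neural factors, both Polycomb targets, and 0 of 12 mesoderm and endoderm factors, 13 germline genes and the 6 feeder markers, and nothing is read from these counts. For Hox genes and neural factors the median H3K9me2 levels were 0.270 and 0.355, and the H3K27me3 levels 3.63 and 3.53.

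**Figure D4:**
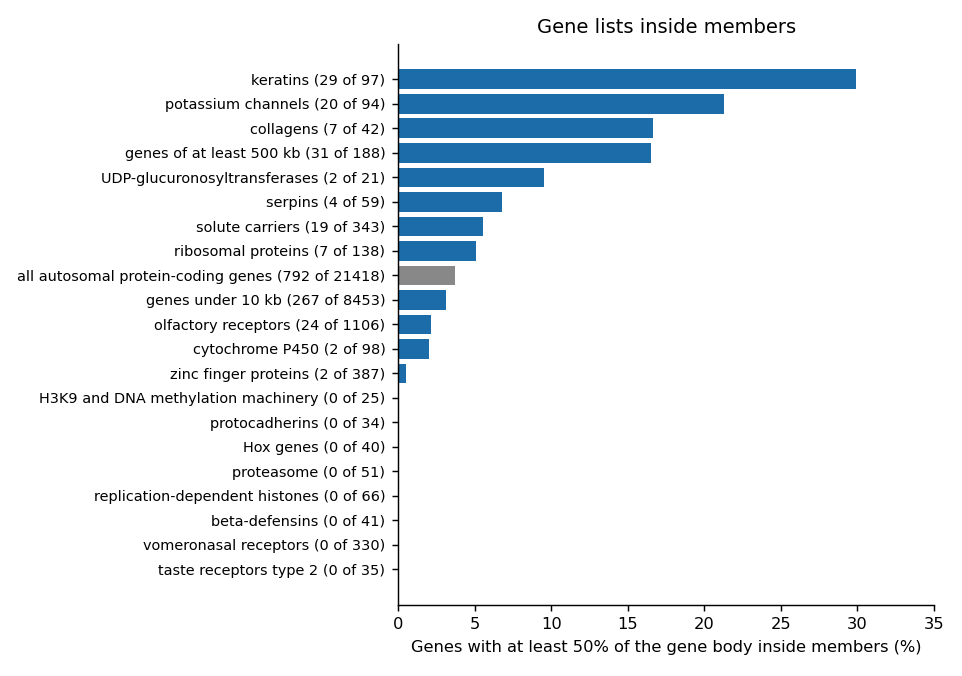
Share of each gene list inside members, in percent of its autosomal genes, with all protein-coding genes in grey (3.70%) and the counts beside the names. Keratins (29.9%), potassium channels (21.3%), collagens (16.7%) and genes of at least 500 kb (16.5%) have the longest bars, and lists such as vomeronasal receptors and Hox genes are at 0.

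Among the keratins, structural filaments of epithelia, Krt4 (chr15:101748967-101755166, minus strand) had H3K9me2 levels of 1.49 and 1.52. Its H3K27me3 levels were 2.43 and 2.80, and its H3K9me3 levels 1.34 and 1.74. The hair keratin Krt36 (chr11:99963321-99966940, minus strand) had H3K9me2 levels of 1.74 and 1.23 and H3K27me3 levels of 2.19 and 2.10. In both genes the H3K27me3 level was the higher number in each genotype. Among the potassium channels, Kcns2, a silent modifier subunit, had H3K9me2 levels of 1.32 and 1.34 and H3K27me3 levels of 2.59 and 2.14, and its H3K9me3 levels of 0.705 and 0.716 were below the median member. Kcnd3, a subunit of the transient outward current, had H3K9me2 levels of 1.27 and 1.19 and H3K27me3 levels of 2.17 and 1.91. The collagen Col6a1 stood at 1.37 and 1.45 in H3K9me2 and at 1.72 and 1.63 in H3K27me3. In all of these genes the level of H3K27me3 was above that of H3K9me2, in both genotypes. The median member had the same order, at 1.21 and 1.12 in the mean of both genotypes. Each level is relative to its own library, so levels of different antibodies do not compare amounts of the marks. Ugt1a1, a liver enzyme that conjugates bilirubin, lay in the window on chromosome 1 described above and had H3K9me2 levels of 7.01 and 6.37, H3K27me3 levels of 6.57 and 7.33 and H3K9me3 levels of 8.39 and 8.61.

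The 10 longest genes inside members included several for proteins of the neuronal surface. The longest, Gpc5 (chr14:115491437-116923659), codes for a heparan sulfate proteoglycan of the cell surface and had H3K9me2 levels of 1.36 and 1.32. Its H3K27me3 levels were 1.27 and 1.249 and its H3K9me3 levels 1.22 and 1.17. Its neighbour Gpc6, of the same family, had H3K9me2 levels of 1.48 and 1.37. Both lie in distal chromosome 14, described below. Outside that region, Opcml and Ntm, adjacent genes for neuronal cell adhesion molecules, had H3K9me2 levels of 1.12 and 1.07, and of 1.15 and 1.07. Dab1, which relays Reelin signalling, had 1.16 and 1.08, with 90.4% of its body inside members. Ptprt, a receptor phosphatase, had 1.12 and 1.03. The ion channel Accn1 had 1.15 and 1.11 in H3K9me2 and 1.77 and 1.63 in H3K27me3. In each of these 7 genes H3K9me2 was lower where Dnmt1 was deleted too, as it was in 77.9% of members and 49.8% of all windows. Because H3K9me2 chose the members, nothing is read from this count.

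The label of broad domains held only in part. The 2360 members formed 1301 runs of adjacent windows, 858 of them (65.9%) a single window and 69 of at least 5 windows. The windows next to a member had a median H3K9me2 level of 1.06 and were members in 45.1% of cases, and at 1 Mb from a member 22.2% were. Outside distal chromosome 14, which is treated next, 40.1% of adjacent windows and 15.3% of windows at 1 Mb were members. On average the level thus declined gradually with distance from a member. Of the 1268 runs outside that region 850 (67.04%) were a single window and none reached 10 windows. The longest, chr9:97300001-98200000 over Clstn2, a postsynaptic calsyntenin, had mean H3K9me2 levels of 1.23 and 1.12, H3K27me3 levels of 1.40 and 1.33 and H3K9me3 levels of 1.03 and 1.06. Runs of 8 windows covered Ebf1, a transcription factor of B cells (chr11:44600001-45400000), the NMDA receptor subunit gene Grin2b (chr6:135400001-136200000), and Ano2, Ntf3 and Vwf (chr6:125600001-126400000). The run at chr9:101700001-102500000 over the receptor tyrosine kinase gene Ephb1 had H3K27me3 levels of 1.78 and 1.69, the highest of the 6 longest runs outside distal chromosome 14. The run at chr4:55600001-56400000 held no protein-coding gene, with H3K9me2 levels of 1.19 and 1.16.

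The longest runs lay in 1 region. On chromosome 14 all 3 marks stepped up near position 94000001 and had higher medians up to the end of the chromosome, at 125194864. The position was chosen from these levels, so they are described without a test. Of the 312 scored windows in this stretch 253 (81.1%) were members, which made up 10.7% of all members, against 108 of 860 (12.6%) on the rest of the chromosome. All 9 runs of 10 windows or more lay there. The median of the 20 windows before the step and of the 20 after it went from 0.750 to 1.15 in H3K9me2 of the Dicer KO and from 0.759 to 1.09 in that of the Dicer KO/Dnmt1 cKO. For H3K27me3 it went from 0.708 to 0.90 and from 0.694 to 0.919, and for H3K9me3 from 0.665 to 0.959 and from 0.654 to 0.925. The step was thus present in all 6 libraries. In both H3K9me2 libraries the ranges of the 20 windows on either side did not overlap, with 0.616 to 0.873 before and 1.05 to 1.248 after the step in the Dicer KO. In the 4 libraries of the other marks they overlapped. The median of the whole stretch was between 1.38 and 1.45 times that of all windows in each library. DNA copy number was not tested, and no input library was used. The step was shared by all 3 antibodies. In these 6 libraries a difference in DNA amount and one in the marks thus cannot be told apart.

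**Figure D5:**
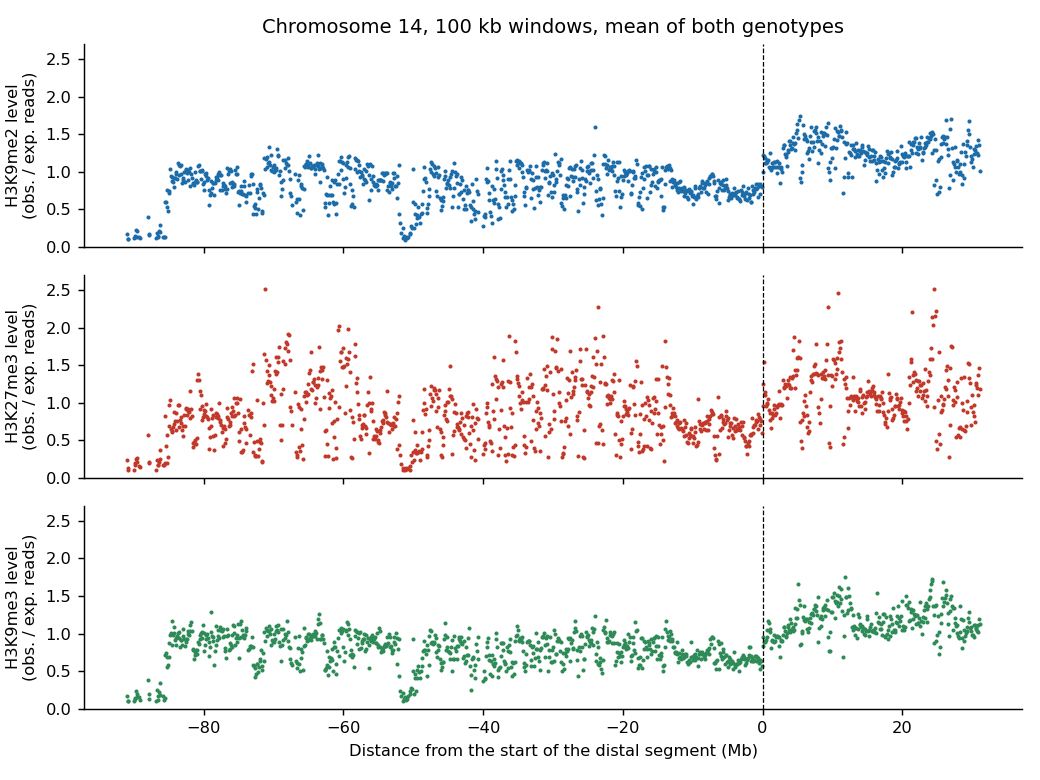
Levels of the 3 marks (observed over expected reads, mean of both genotypes) in 100 kb windows along chromosome 14, by distance in Mb from the step near position 94000001, which the dashed line marks. The medians of all 3 marks are higher to the right of the line, where 253 of 312 windows are members.

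The genes of this stretch belong to several families. The longest run, chr14:99800001-103400000 with 36 windows, held the transcription factor gene Klf12, the LIM domain gene Lmo7, Tbc1d4, which controls glucose transporter traffic, and the deubiquitinase gene Uchl3. Its mean H3K9me2 levels were 1.44 and 1.42. Klf12 itself had H3K9me2 levels of 1.31 and 1.35 but H3K27me3 levels of 0.673 and 0.772, and Lmo7 had 1.32 and 1.34 against 0.698 and 0.852. Uchl3 was lower in both, with 0.901 and 1.02 in H3K9me2 and 0.338 and 0.455 in H3K27me3. The run chr14:106900001-110200000 with 33 windows held Slitrk1, a neuronal synapse gene, and had mean H3K9me2 levels of 1.28 and 1.22. Over Slitrk1 the H3K27me3 level was 2.55 and 2.94, above its H3K9me2 levels of 1.16 and 1.07. The run chr14:115200001-118500000, also of 33 windows, held Gpc5, Gpc6 and Dct, an enzyme of melanin synthesis. Dct had H3K9me2 levels of 1.55 in both genotypes and H3K27me3 levels of 1.92 and 2.09. The run chr14:96900001-99400000 with 25 windows held Dach1 and Klhl1, and chr14:119500001-120700000 with 12 windows held Hs6st3, a heparan sulfate sulfotransferase. Hs6st3 had H3K9me2 levels of 1.47 and 1.43, in the mean of both genotypes the highest among genes of at least 500 kb inside members.

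When the levels in this stretch were divided by its ratio to the rest of the chromosome, 13 of its 312 windows (4.17%) were members. Ranking without the stretch gave 2329 members, of which 2107 were members before, and the longest run then had 10 windows. On chromosome 17 the opposite was found, since 0 of the 211 windows from position 74000001 onward were members. Their median levels were 0.446 and 0.449 in H3K9me2, 0.355 and 0.363 in H3K27me3 and 0.427 and 0.422 in H3K9me3, between 0.447 and 0.529 times the medians of all windows. Of these 211 windows 194 (91.9%) were in the lowest 10% by H3K9me2, the set with which members are compared. DNA copy number was not tested there either. By chromosome, the share of windows that were members was between 5.30% on chromosome 17 and 13.3% on chromosome 7, apart from 30.8% on chromosome 14.

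Between genotypes, the H3K9me2 of members was slightly lower with Dnmt1 deleted. A change is given as log2 of the read share in the Dicer KO/Dnmt1 cKO over the read share in the Dicer KO, with shares taken of all reads in the library. Summed over members it was −0.060 for H3K9me2 (counting interval −0.063 to −0.058), against 0.0036 over all windows and 0.18 in the lowest 10%. In steps 7, 8 and 9 of the 10 by H3K9me2 it was −0.024, −0.032 and −0.046. The value in members continued this slope and was not particular to them. Of the members 1838 (77.9%) were lower, and over all windows 49.8 percent were lower. Because the same libraries chose the members, nothing is read from this share. A level 25% higher or 20% lower, the same fold in either direction, was taken as the limit for single windows. Windows with fewer reads pass it more often by counting error alone. In the Dicer KO, members held 2270584 H3K9me2 reads and the lowest 10% held 779966. For every mark the share that passes is thus no measure of stability. No member passed the limit in H3K9me2, and over all windows 2.58 percent were higher and 0.072 percent lower by that much. Changes of single members ranged from −0.32 to 0.29. Their SD was 0.079, against a median SD of 0.064 from counting alone. Outside distal chromosome 14 the change was −0.063 and inside it −0.042. It was −0.084 where the Dicer KO library alone ranked the windows and −0.030 where the other library did.

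The median member stood at 2.70 and 2.27 times the median of the lowest 10% of windows in H3K9me2, which chose both sets, so nothing is read from this pair. In H3K27me3 these values were 3.28 and 2.96, and in H3K9me3 they were 1.91 and 1.9. As the spread of levels differed between marks, these ratios do not rank them.

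H3K27me3 and H3K9me3, which did not choose the members, had summed changes of opposite sign. The change was −0.028 for H3K27me3 (counting interval −0.030 to −0.026), against −0.0022 over all windows and −0.0098 in step 9 by H3K9me2. It was lower in 1412 members (59.8%), where 45.1 percent of all windows were lower, and higher in 948 (40.2%), where 54.9 percent were. At least 25% higher were 7 members (0.297%), beside 3.14 percent of all windows, and at least 20% lower were 3 (0.127%), beside 0.254 percent. For H3K9me3 the change was 0.024 (counting interval 0.021 to 0.027), against 0.00053 over all windows but 0.022 in step 9 by H3K9me2. It was higher in 1404 members (59.5%), where 50.2 percent of all windows were higher. At least 25% higher were 0 members, beside 0.182 percent of all windows, and at least 20% lower was 1, beside 0.161 percent. Outside distal chromosome 14 the changes were −0.032 and 0.028. Inside it they were 0.0069 and −0.0016. With no tile left out the H3K27me3 change was −0.0078, and with windows ranked by the ratio of H3K9me2 to the other marks, which kept 6.02% of the members, it was 0.13. With windows ranked after adjustment for GC content, which kept 64.6% of the members, the changes were −0.025 in H3K9me2, −0.048 in H3K27me3 and 0.049 in H3K9me3, so that of H3K9me2 was then the smallest of the 3 in size.

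The changes differed with base composition. In the 4 parts of members from low to high GC, the H3K9me3 change was −0.028, 0.013, 0.042 and 0.067, while the H3K9me2 change was −0.054, −0.069, −0.066 and −0.052. In the part with the lowest GC 33.6% of members lay in distal chromosome 14. When the members outside it were divided in the same way, the H3K9me3 change was −0.021, 0.012, 0.043 and 0.071 and the H3K9me2 change −0.059, −0.074, −0.065 and −0.054. Over all windows the 4 parts gave −0.067, −0.024, 0.031 and 0.062 for H3K9me3 and −0.038, −0.029, 0.0029 and 0.088 for H3K9me2. The H3K9me3 change thus went along with GC content in members and in all windows alike. The H3K9me2 change went along with it over all windows but not inside members. Spearman's rho of the H3K9me2 change with the H3K9me2 level was −0.494 over all windows and −0.046 in members. The rule used these libraries and cut the range of levels in members, so nothing is read from this difference. The part of GC content in either change was not tested. The H3K27me3 change was −0.056 in the part with the highest GC and between −0.018 and −0.013 in the others, and outside distal chromosome 14 it was −0.058 and between −0.026 and −0.013. It was largest in the 320 members high in H3K27me3 but not in H3K9me3, at −0.081, and was −0.0051 in the 1118 members high in neither, or −0.0058 in the 1087 of them outside distal chromosome 14.

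The largest changes of single members were small in H3K9me2. At chr14:119200001-119300000, with the claudin gene Cldn10 and Dzip1, the H3K9me2 level was 1.05 and 1.28, a log2 change of 0.29 (0.16 to 0.41). At chr13:31500001-31600000, without a protein-coding gene, it was 1.22 and 0.975, a change of −0.32 (−0.44 to −0.19). At chr6:32400001-32500000 in Plxna4, a semaphorin receptor gene, it was 1.39 and 1.12, a change of −0.31 (−0.43 to −0.19). The largest H3K27me3 changes were found at both ends of its scale. In a window of Dock1 at chr7:142200001-142300000 the H3K27me3 level was 0.437 and 0.587, a change of 0.42 (0.26 to 0.59). At chr15:72300001-72400000, with the potassium channel gene Kcnk9, it was 1.84 and 1.43, a change of −0.37 (−0.46 to −0.27). At chr5:35600001-35700000 it was 2.68 and 2.14, a change of −0.33 (−0.40 to −0.25). Over Adra2c, the alpha-2C adrenergic receptor gene in that window, the H3K27me3 level was 5.69 and 3.29, while its H3K9me2 level was 0.385 and 0.466. Over this gene H3K27me3 was thus above the level of its window and H3K9me2 below it, where the window had 1.18 and 1.16.

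For H3K9me3, windows in a pair of long genes had the largest positive changes. In a window of Slit3, an axon guidance gene, at chr11:35400001-35500000 the H3K9me3 level was 0.855 and 1.05, a change of 0.30 (0.17 to 0.44). In a window of Ntrk2, the receptor of BDNF, at chr13:59000001-59100000 it was 0.940 and 1.16, also 0.30 (0.17 to 0.43). The largest negative change, −0.34 (−0.42 to −0.27), was found at chr17:39900001-40000000, where the H3K27me3 change was −0.63 (−0.68 to −0.58). As given above, the H3K9me2 level of this window came from part of it. The window chr6:50900001-51000000 differed in opposite directions, with H3K9me2 levels of 1.37 and 1.11 and H3K9me3 levels of 0.845 and 1.03. Since the extremes of 2360 windows were picked by size, their intervals do not allow for that choice.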

How the data were processed

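H3K9me2, H3K27me3 and H3K9me3 ChIP-seq libraries of Dicer KO and Dicer KO/Dnmt1 cKO ESCs were analysed, 1 per mark and genotype. Reads were trimmed (Trim Galore), aligned to NCBIM37 (Bowtie2) and kept at MAPQ of 20 or more by the authors. The deposited values, computed in SeqMonk, are the log2 ratio of observed to expected reads per tile. The table has 2 kb tiles, whereas the methods state 1 kb. Of its 25 columns of values, 6 matched the labels and 19, of other samples and of input, were not used. Samples were grouped by the titles in the labels.

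Whole reads were recovered from the log2 values. Tiles without reads stood at 0.9 of a read, and at most 1 value per library lay more than 0.1 reads from a whole number. The expected value was 1.3 times the mean reads per tile in each library, so a level of 1 is not the genome mean. Gene symbols, types and positions came from the GENCODE annotation of NCBIM37, and its chromosomes had the lengths in the table for 22 of 22. A gene is inside members if at least 50% of its body is. GC and CpG content came from the reference sequence.

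Changes are ratios of summed reads after division by the library total, and no test between genotypes was made. The members, gene lists and the rule for named windows and genes (extremes of level and change, longest runs, windows at the threshold, longest genes, and the genes of each list with the most H3K9me2) were chosen with earlier results of these data known. The windows with the highest ratio of H3K9me2 to the other marks, those with the lowest H3K27me3 and the runs outside distal chromosome 14 were added after values were seen. Scripts were tested on simulated data. Python 3.11.15, numpy 2.4.6, pandas 2.3.3, scipy 1.17.1 and matplotlib 3.10.9 were used. Alternatives were other window sizes, tile rules, shares of windows, single libraries, GC adjustment, a ranking relative to the other marks, other scalings and other folds.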

Additional observations from a re-analysis of the deposited data

How the results depend on the processing

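No paired analysis was possible because no result comes from a test and every mark has a single library in each genotype. For the same reason no replicate could be left out. Of 162 values recomputed, 102 stayed within a set limit and 2 genotype changes changed sign. For genotype changes the limit was the counting interval. For levels it was the larger of the library difference and an interval over windows, and for GC content and genes per window an interval over windows. Counts of windows, runs and genes had to stay within 1.5-fold. Member sets were compared in this by their number alone, which follows from the share of windows taken. The settings kept between 6.02% and 100% of the members. Both sign changes came from ranking windows by the ratio of H3K9me2 to the mean of the other marks, with 6.02% kept. This gave changes of 0.052 for H3K9me2, 0.13 for H3K27me3 and 0.0075 for H3K9me3, levels of 0.972, 0.593 and 0.854 times those of all windows and so below instead of above them, 40.2% GC and 1.22 genes per window. Higher levels of the other marks in members, and lower H3K9me2 and H3K27me3 in the Dicer KO/Dnmt1 cKO, thus hold for the ranking by level and not for this one.

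Windows of 50 kb gave 4725 members in 2639 runs with 0.581 genes each and H3K27me3 at 1.51 times all windows, and windows of 200 kb gave 1177 in 634 runs with 1.01 genes and 1.5 times. The highest 5% were 1180 windows in 691 runs with 43.0% GC, levels of 1.35, 1.62 and 1.27 times all windows for H3K9me2, H3K27me3 and H3K9me3, and changes of −0.064, −0.034 and 0.020. The highest 20% were 4720 windows in 2086 runs with 42.2% GC, levels of 1.24, 1.41 and 1.18 times, and changes of −0.053 for H3K9me2 and −0.020 for H3K27me3. With no tile left out, H3K27me3 stood at 1.57 times and the changes were −0.073, −0.0078 and 0.031, and with the median of tiles the H3K9me3 change was 0.021. Ranking on the Dicer KO alone gave 0.689 genes and an H3K9me2 change of −0.084, and on the Dicer KO/Dnmt1 cKO alone 0.769 and −0.030. This change thus depends on which library ranked the windows. After division by the median of windows of like GC content (64.6% of members kept), H3K27me3 stood at 1.74 times, with 45.5% GC, 1.00 genes and changes of −0.025, −0.048 and 0.049. Alternatives for distal chromosome 14 were chosen after seeing the data. Leaving it out or rescaling it gave 43.0% GC and an H3K9me3 change of 0.028. With autosomal reads as total the H3K9me2 change was −0.064. With the median change set to 0, and with a trimmed mean, the H3K27me3 change was −0.043. At 1.1-fold, 391, 375 and 406 members differed in H3K9me2, H3K27me3 and H3K9me3 (16.6%, 15.9% and 17.2%, beside 27.01%, 27.4% and 20.9% of all windows). At 1.5-fold 1 differed in H3K27me3 (0.042%, beside 0.136%) and 0 in H3K9me3 (beside 0.0085%). The cause of these shifts was not tested beyond what each alternative changes by construction. Depth limits single windows to counting SDs near 0.064 (log2) in H3K9me2.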
